A study of Mus musculus with 10 samples.

Results

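The mitochondrial protein import machinery was followed through 38 genes, chosen by symbol for their known role in import. No value of theirs was in the rule, but the choice was made with earlier results of these data known. All 38 were found among the 52097 genes of the table. The libraries came from haematopoietic stem cells of mouse bone marrow, sorted at about 5000 cells per sample as cells without lineage markers or CD48 and with Sca-1, c-Kit and CD150. The 5 control samples carry titles beginning Dhx16_fl and the genotype WT, and the 5 knockout samples carry titles beginning Dhx16_CKO and the genotype KO. Dhx16 encodes a spliceosomal RNA helicase of the DEAH-box family, and the titles read as a floxed gene and its conditional knockout. The Cre line, the cells in which it acts, the age of the mice and any inducing treatment are not given in the sources used here. Whether the samples are separate animals is not stated either, so the p-values measure no more than the spread among these samples, which may be technical. The single comparison, knockout against control, asks how RNA levels differ between cells with and without the knockout of Dhx16.

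Most mitochondrial proteins are encoded in the nucleus, made in the cytosol and carried into the organelle by membrane machines. The TOM complex is the common gate of the outer membrane, and behind it the SAM complex places beta-barrel proteins, the small TIM chaperones and the disulfide relay handle proteins of the intermembrane space, and the TIM22 and TIM23 complexes serve the inner membrane and the matrix. An Hsp70 motor pulls matrix proteins through TIM23, the processing peptidase removes their presequences, and the prohibitins form ring-shaped scaffolds in the inner membrane. Haematopoietic stem cells are known for low reliance on respiration at rest and for a rise in mitochondrial activity when they divide or differentiate.

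Values are FPKM, fragments scaled to gene length and library size, and they summed to 770789 to 966648 per library. The size factors in the authors' deposited mean normalized counts ran from 0.73 to 1.36, and those mean counts summed to 14944432. Per gene they ran from 231 for Pam16 to 6317 for Hspa9 among the import genes. Genes that reached 10 FPKM in 5 libraries or more were tested with limma on log2(FPKM + 1), which left 6913 genes. A gene was called at a Benjamini-Hochberg adjusted p under 0.05, and a change is the log2 value of the knockout minus that of the control. Dhx16 itself ran from 14.3 to 22.6 FPKM in the controls and from 7.1 to 10.9 FPKM in the knockouts, without overlap (log2 change -0.81, SE 0.16, adjusted p = 0.000638). The Dhx16 value is for the whole gene and was reduced, not absent, and which part was deleted is not given in the sources used here. Of all tested genes 52.7% were called, 21.1% higher and 31.6% lower.

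The stem cell label was set beside 8 markers, and none was at 0 in every library, which does not settle what the cells were. Their summed level was 587 to 869 FPKM in the controls and 412 to 642 FPKM in the knockouts, and 5 of 7 tested were lower. Markers of some other cell types differed between the groups, and others were not called or not tested. All 9 erythroid markers were higher, with sums of 109 to 383 FPKM against 744 to 1170 FPKM. All 6 megakaryocyte markers were lower, with sums of 1440 to 2100 FPKM against 695 to 1370 FPKM. The 3 macrophage markers tested, of 6, were lower, with sums of 117 to 272 FPKM against 10.6 to 27.5 FPKM. Of the 5 B cell markers, 1 was tested and it was lower, with sums of 29.9 to 49.6 FPKM against 18.6 to 32.2 FPKM. None of the 6 granulocyte markers (9620 to 74200 FPKM against 8350 to 40800 FPKM) or the 6 bone matrix markers (3180 to 65900 FPKM against 4550 to 47800 FPKM) was called. Both of these lists summed above the stem cell markers in each group, in cells sorted without lineage markers. The 4 T cell markers summed to 8.73 to 11.7 FPKM against 6.69 to 7.93 FPKM, and Cd48, which the sort gates out, was at 7.18 to 15.0 FPKM against 5.91 to 8.63 FPKM. No marker on these lists was at 0 in every library. Their part in the import results below was not tested, and in bulk samples fewer cells of a type and less RNA per cell cannot be told apart.

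Import genes were mostly higher in the knockout. Of the 38 genes 37 were tested and 27 were called higher, against 21.1% of all tested genes. Tomm34 and Timm21 were called lower, against 31.6% of all tested genes, and 8 members were not called. The median change of the tested members was 0.50, against -0.12 over all tested genes. In 18 members every knockout library lay above every control library, against 12.9% of all tested genes, and in no member did every knockout library lie below, against 22.1%. Phb2, Tomm40, Hspa9, Phb and Timm23 had the largest changes, from 0.92 to 1.40.

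**Figure D1:**
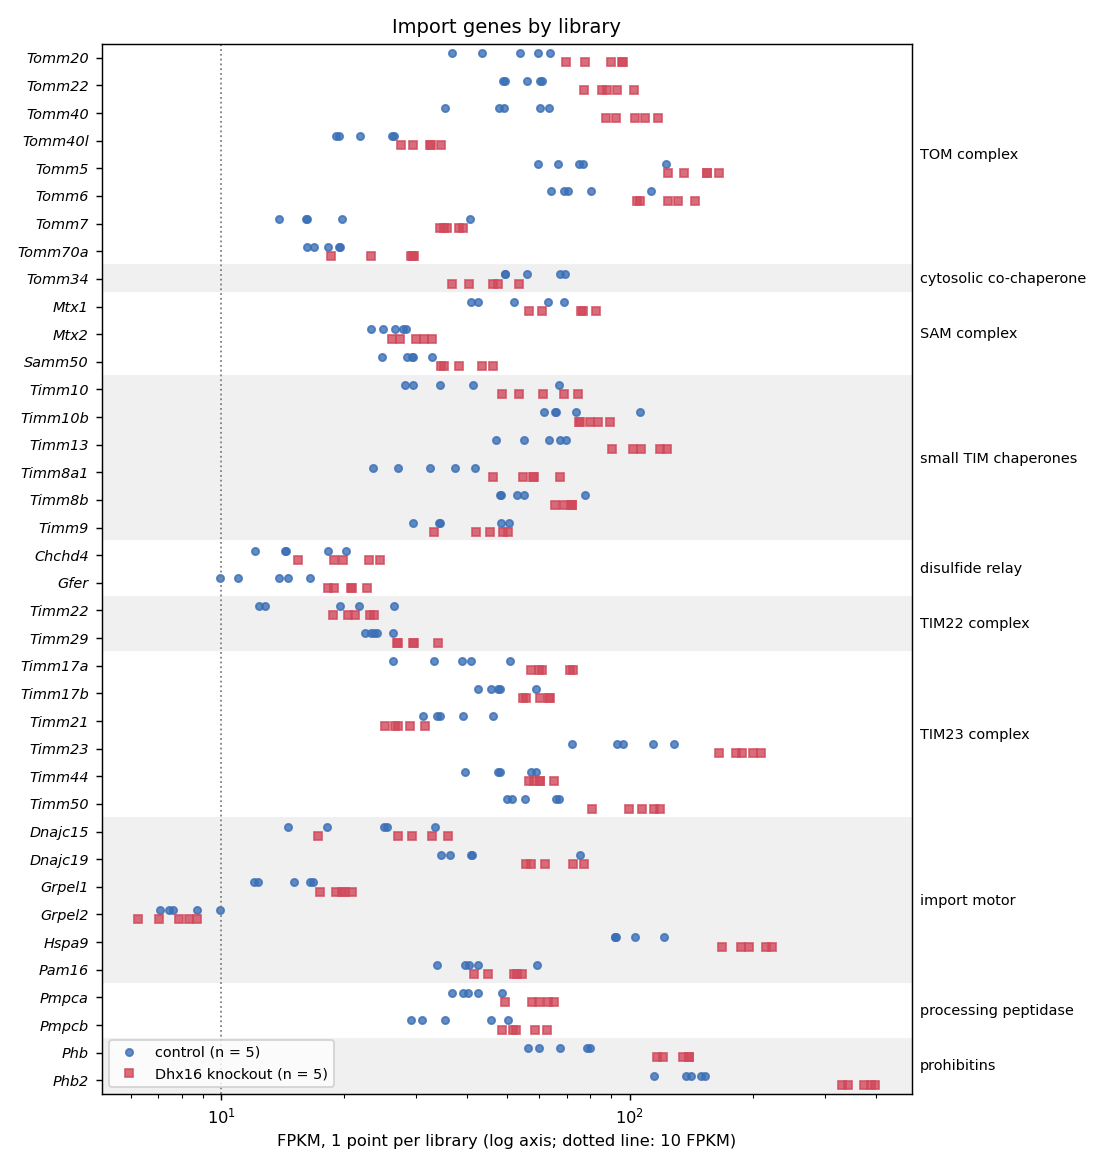
FPKM of the 38 import genes in each of the 5 control libraries (circles) and 5 Dhx16 knockout libraries (squares) on a log axis, ordered by role, with a dotted line at 10 FPKM. Phb2 shows the widest separation, from 115 to 153 FPKM in control and from 330 to 399 FPKM in knockout libraries.

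The level at which libraries are set against each other moved every change. The median over all tested genes was 0.25 with median-of-ratios size factors, 0.36 with upper-quartile factors, -0.25 with equal library totals and 0.27 after a shift to the authors' fold changes, so each change is best read against that median. Of the called genes 40.1% were higher as deposited, and 78.9%, 85.9%, 28.3% and 79.6% with the 4 other scalings as just listed. The members' median was 0.88, 0.98, 0.36 and 0.90, above the median of all tested genes under each of the 5 scalings. A scaling moves all genes by nearly the same amount, so the gap between these medians could hardly differ between scalings. With median-of-ratios factors 35 members were called higher, against 44.2% of all tested genes, and none lower, against 11.8%. Under all 5, 19 members were called higher, against 15.3% of all tested genes, and none lower, against 8.42%. These were Tomm5, Tomm6, Tomm7, Tomm20, Tomm22, Tomm40, Timm8a1, Timm10, Timm13, Gfer, Timm17a, Timm23, Timm50, Hspa9, Dnajc19, Pmpca, Pmpcb, Phb and Phb2. The counts under all 5 are set by the strictest scaling and are not 5 separate checks. Equal library totals alone called 1056 genes higher, as did all 5 together, with 19 members higher and 2 lower. Upper-quartile factors alone called 582 genes lower, as did all 5 together. The upper-quartile result depends on its definition: taken over the values above 0 in each library, it called 20 members higher and 1 lower in place of 35 and none, with 16.6% of all tested genes higher and 27.2% lower, and the members higher under all 5 scalings were then 18, without Dnajc19. With equal library totals Tomm40l, Tomm70a, Samm50, Mtx1, Timm8b, Timm29, Timm17b and Grpel1 were not called, at changes of 0.14 to 0.35. In the authors' deposited table, where library scaling was the authors' own, 36 of the 38 members were higher at an adjusted p under 0.05. That stands against 17.1% of the 23405 genes with an adjusted p there, which take in genes below the 10 FPKM filter. Of the 6913 genes that passed the filter 44.2% were higher with median-of-ratios factors, a base closer in level to the members.

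**Figure D2:**
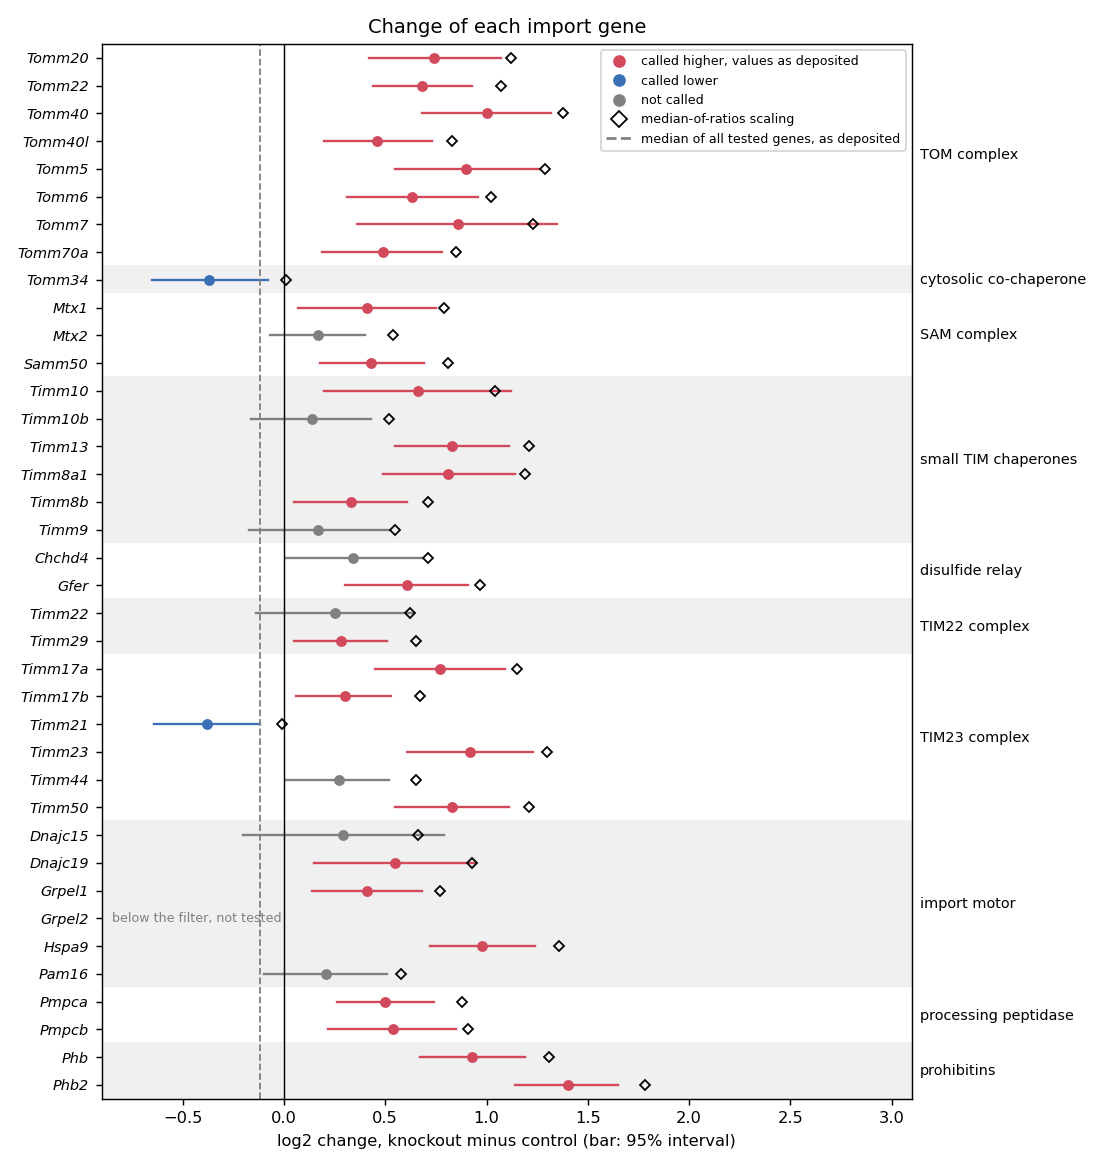
Log2 change of each tested import gene with its 95% interval, values as deposited (filled circles), and the same change with median-of-ratios scaling (diamonds), ordered by role. The dashed line marks the median of all tested genes at -0.12, and 27 of 37 members were called higher as deposited.

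All 8 TOM genes were called higher, against 21.1% of all tested genes, with a median change of 0.71. In 5 of them the knockout libraries all lay above the controls, against 12.9% of all tested genes. The counts of the other role groups below stand against the same shares. Library values are listed in the order WT2, WT3, WT4, WT5 and WT6 for control and CKO7, CKO8, CKO9, CKO12 and CKO13 for knockout, and group values are mean ± SD with n = 5. Tomm40 (ENSMUSG00000002984, chr7:19701313-19715438, minus strand, mm10) encodes the beta-barrel channel through which nearly all imported proteins pass. Its values were 63.4, 60.3, 47.7, 35.2 and 49.2 FPKM in the control libraries and 109, 103, 92.2, 117 and 87.3 FPKM in the knockout libraries. Every knockout library lay above every control library, at 51.2 ± 11.2 FPKM in the controls against 102 ± 12 FPKM in the knockouts (log2 change 1.0, SE 0.15, adjusted p = 8.16e-05). Tomm20, a receptor for presequences, was at 53.8, 59.6, 63.6, 36.8 and 43.5 FPKM in the control libraries and 69.8, 95.8, 77.4, 89.9 and 96 FPKM in the knockout libraries. Its groups did not overlap either (log2 change 0.74, SE 0.15, adjusted p = 0.000866). Tomm22, the central receptor that joins the parts of the complex, ran from 49.0 to 61.0 FPKM in control and from 77.1 to 103 FPKM in knockout libraries (log2 change 0.68, SE 0.11, adjusted p = 0.000182). Tomm70a, the receptor for carrier proteins, had overlapping groups (log2 change 0.49, SE 0.14, adjusted p = 0.0086).

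The small subunits that stabilise the TOM channel were higher too. Tomm5 (ENSMUSG00000078713) was at 76.6, 75.2, 122, 59.6 and 66.8 FPKM in the control libraries and 136, 165, 155, 124 and 155 FPKM in the knockout libraries. The lowest knockout library stood just above control library WT4, whose value was the highest of the controls (log2 change 0.90, SE 0.17, adjusted p = 0.000372). Tomm7 (ENSMUSG00000028998) was at 13.8, 19.8, 40.6, 16.1 and 16.2 FPKM in the control libraries and 35.6, 35, 34.2, 38.2 and 39.1 FPKM in the knockout libraries. Here WT4 stood above every knockout library and the other 4 controls below every one (log2 change 0.86, SE 0.23, adjusted p = 0.00733). Tomm6 overlapped through WT4 too, at 113 FPKM (log2 change 0.63, SE 0.15, adjusted p = 0.00277). Tomm40l, a second channel isoform, was higher without overlap (log2 change 0.46, SE 0.12, adjusted p = 0.00599).

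Tomm34 goes against the other Tomm genes, and its product is a cytosolic co-chaperone that binds Hsp70 and Hsp90 and is not part of the TOM complex. Its values were 69.4, 49.6, 67.3, 55.9 and 49.5 FPKM in the control libraries and 47.7, 46.2, 53.6, 40.3 and 36.7 FPKM in the knockout libraries. The groups overlapped at 58.3 ± 9.54 FPKM in the controls against 44.9 ± 6.58 FPKM in the knockouts (log2 change -0.37, SE 0.14, adjusted p = 0.0324). The change was positive with median-of-ratios factors (0.01), upper-quartile factors (0.12) and the shift to the authors' fold changes (0.03), and none of these was called. The call as deposited was also lost without WT2 (adjusted p = 0.0824), WT4 (0.0665), CKO12 (0.0691) or CKO13 (0.0888). The authors' deposited table gives it a log2 fold change of 0.02 (SE 0.14, adjusted p = 0.932).

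In the SAM complex 2 of 3 genes were called higher, with a median change of 0.41. Samm50, the barrel that inserts other beta-barrel proteins, was at 32.9, 29.4, 28.4, 24.7 and 29.2 FPKM in the control libraries and 35, 43.4, 46.3, 34.5 and 38.1 FPKM in the knockout libraries. Its groups did not overlap (log2 change 0.43, SE 0.12, adjusted p = 0.00695). Mtx1, an outer membrane partner of Samm50, was called (log2 change 0.41, SE 0.16, adjusted p = 0.04), but not without WT3, WT5, WT6, CKO8, CKO9 or CKO13, where the adjusted p ran from 0.0656 to 0.108. Mtx2, the other metaxin, was not called (log2 change 0.17, SE 0.11, adjusted p = 0.217).

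Of the 6 small TIM chaperones, which carry hydrophobic proteins across the intermembrane space, 4 were called higher, with a median change of 0.50. Timm13 was at 63.2, 67.5, 69.8, 46.9 and 55.1 FPKM in the control libraries and 90.4, 107, 118, 102 and 123 FPKM in the knockout libraries. Its partner Timm8a1 was at 37.2, 32.5, 41.7, 23.5 and 27.1 FPKM in the control libraries and 54.9, 67.5, 57.8, 46.2 and 58.3 FPKM in the knockout libraries. Neither gene's groups overlapped, with changes of 0.83, SE 0.13, adjusted p = 0.000121 for Timm13 and 0.81, SE 0.15, adjusted p = 0.000453 for Timm8a1. The partners Timm9 and Timm10 form the main carrier of this space. Timm10 was called (log2 change 0.66, SE 0.21, adjusted p = 0.0187), with overlap through WT4 at 67.1 FPKM, and Timm9 was not (log2 change 0.17, SE 0.16, adjusted p = 0.382), with a change of 0.27 without WT4 or CKO7 and 0.08 without WT5 as the extremes when 1 library was left out. Timm8b was called (log2 change 0.33, SE 0.13, adjusted p = 0.0427), but in the 9 fits that each left out a library other than WT4 its adjusted p ran from 0.0551 to 0.103. Timm10b, which docks the carrier at TIM22, was not called (log2 change 0.14, SE 0.14, adjusted p = 0.423), and without WT4 its change was 0.27 with an adjusted p of 0.0391. With equal library totals the change of Timm10b was 0.00.

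The disulfide relay has an oxidoreductase, Chchd4, that puts disulfide bonds into incoming proteins, and a sulfhydryl oxidase, Gfer, that re-oxidises it. Chchd4 was at 18.2, 14.3, 20.1, 14.3 and 12.1 FPKM in the control libraries and 18.8, 24.4, 22.9, 15.4 and 19.8 FPKM in the knockout libraries. The groups overlapped and it was not called (log2 change 0.34, SE 0.16, adjusted p = 0.0768), while without WT4 the change was 0.43 (adjusted p = 0.0292) and without CKO12 also 0.43 (adjusted p = 0.0276). Gfer was higher without overlap, from 9.94 to 16.5 FPKM in control and from 18.3 to 22.7 FPKM in knockout libraries (log2 change 0.61, SE 0.14, adjusted p = 0.00233).

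The 2 TIM22 genes had the smallest median change of the inner membrane machines, at 0.27. Timm22, the channel that inserts carriers, was at 19.5, 26.5, 21.7, 12.4 and 12.8 FPKM in the control libraries and 23.6, 20.4, 23, 18.8 and 21.2 FPKM in the knockout libraries. WT5 and WT6 were low and the other controls lay within or above the knockout range, and the gene was not called (log2 change 0.25, SE 0.18, adjusted p = 0.264), with a change of 0.39 without WT3, 0.13 without WT5 and 0.14 without WT6. Timm29, a subunit of the same complex, was called without overlap (log2 change 0.28, SE 0.11, adjusted p = 0.0379), and lost the call without WT3, WT4, WT5, WT6, CKO7, CKO8 or CKO9, with adjusted p from 0.0619 to 0.088.

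TIM23, the presequence translocase, had 4 genes called higher, Timm21 called lower and Timm44 not called, with a median change of 0.53. Timm23 (ENSMUSG00000013701, chr14:32180162-32201898, minus strand, mm10), its channel subunit, was at 114, 96.4, 128, 72.3 and 93 FPKM in the control libraries and 181, 209, 188, 165 and 199.9 FPKM in the knockout libraries. Every knockout library lay above every control library, at 101 ± 21.4 FPKM in the controls against 189 ± 17 FPKM in the knockouts (log2 change 0.92, SE 0.14, adjusted p = 0.000114). Timm50, the receptor that takes presequences from TOM, was at 66, 55.3, 67.1, 50.1 and 51.3 FPKM in the control libraries and 99.4, 119, 115, 80.6 and 107 FPKM in the knockout libraries. Timm17a, which pairs with Timm23 in the channel, was at 38.9, 50.8, 40.9, 26.3 and 33.2 FPKM in the control libraries and 59.9, 72.4, 61, 57.3 and 71.2 FPKM in the knockout libraries. Neither overlapped, with changes of 0.83, SE 0.13, adjusted p = 0.000125 for Timm50 and 0.77, SE 0.15, adjusted p = 0.000629 for Timm17a. Timm17b, the other isoform, was called (log2 change 0.30, SE 0.11, adjusted p = 0.037), but not without WT2, WT5, WT6, CKO7, CKO9 or CKO13, where the adjusted p ran from 0.0534 to 0.0934.

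Timm21 links TIM23 to TOM and to respiratory chain assembly. Its values were 39, 33.7, 46.1, 34.3 and 31.1 FPKM in the control libraries and 26.6, 31.5, 27, 28.9 and 25.2 FPKM in the knockout libraries. The 2 groups overlapped in a narrow band, at 36.8 ± 5.94 FPKM in the controls against 27.8 ± 2.42 FPKM in the knockouts (log2 change -0.38, SE 0.12, adjusted p = 0.0169). The change was -0.01 with median-of-ratios factors, 0.10 with upper-quartile factors and 0.01 after the shift to the authors' fold changes, and none of these was called. The authors' deposited table gives a log2 fold change of -0.02 (SE 0.15, adjusted p = 0.943). Timm44, which tethers the motor to the channel, was not called (log2 change 0.27, SE 0.12, adjusted p = 0.0707), but was without WT2 (0.33, adjusted p = 0.0339) or WT4 (0.32, adjusted p = 0.0355).

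In the import motor 3 of 5 tested genes were called higher, with a median change of 0.41. Hspa9, the matrix Hsp70, was at 121, 103, 91.8, 92 and 92.6 FPKM in the control libraries and 195, 222, 216, 168 and 187 FPKM in the knockout libraries. Every knockout library lay above every control library, at 100 ± 12.6 FPKM in the controls against 198 ± 22.1 FPKM in the knockouts (log2 change 0.98, SE 0.12, adjusted p = 1.89e-05). Grpel1, a nucleotide exchange factor for Hspa9, was called without overlap (log2 change 0.41, SE 0.13, adjusted p = 0.0139). Grpel2, its paralogue, ran from 7.07 to 9.92 FPKM in the controls and from 6.26 to 8.7 FPKM in the knockouts, below the 10 FPKM filter, so it was not tested there. With a filter of 1 FPKM its change was -0.08 (SE 0.13, adjusted p = 0.618). Dnajc19, a J-protein that activates Hspa9, was called (log2 change 0.55, SE 0.19, adjusted p = 0.0231) with overlap through WT4 at 75.6 FPKM, and not without WT2, WT3, WT5, CKO8 or CKO13, where the adjusted p ran from 0.052 to 0.0619. Dnajc15, a related J-protein, was not called (log2 change 0.29, SE 0.23, adjusted p = 0.301), with a change of 0.46 without CKO7 and 0.14 without WT5 as the extremes when 1 library was left out. Pam16, a J-like regulator, was not called (log2 change 0.21, SE 0.14, adjusted p = 0.236), and without WT4 its change was 0.32 (adjusted p = 0.0324).

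Both subunits of the matrix processing peptidase were called. Pmpca was higher without overlap (log2 change 0.50, SE 0.11, adjusted p = 0.00193), and Pmpcb, the catalytic subunit, overlapped (log2 change 0.54, SE 0.15, adjusted p = 0.00728).

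The prohibitins had the largest median change, 1.16. Phb2 (ENSMUSG00000004264, chr6:124712336-124716950, plus strand, mm10) was at 153, 137, 149, 115 and 141 FPKM in the control libraries and 399, 389, 330, 342 and 375 FPKM in the knockout libraries. The knockout libraries averaged 2.64-fold the controls, at 139 ± 15 FPKM in the controls against 367 ± 29.6 FPKM in the knockouts (log2 change 1.40, SE 0.12, adjusted p = 1.7e-06). Phb was at 79.8, 67.4, 78.5, 56.3 and 59.8 FPKM in the control libraries and 120.4, 139.5, 135, 117 and 139.8 FPKM in the knockout libraries. Its groups did not overlap either, at 68.4 ± 10.6 FPKM in the controls against 130.2 ± 11 FPKM in the knockouts (log2 change 0.93, SE 0.12, adjusted p = 3.16e-05).

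Ratios of related genes within a library hardly depend on scaling between libraries, since only the pseudocount of 1 ties them to it. For 8 pairs the log2 ratio was compared with an exact permutation test (two-sided) over the 252 assignments, whose smallest possible p is 0.00794, adjusted over the 8 pairs, and 5 pairs passed. Timm17a rose relative to Timm17b, from -0.37 ± 0.23 in control to 0.11 ± 0.17 in knockout libraries (SD, n = 5), a difference of 0.48 (95% interval 0.22 to 0.78, exact permutation p = 0.00794, adjusted p = 0.0212), and the groups did not overlap. Grpel1 rose relative to Grpel2, by 0.49 (95% interval 0.26 to 0.72), also without overlap and with the same exact p. Phb2 rose relative to Phb, since the ratio of Phb to Phb2 fell by 0.47, from -1.02 ± 0.12 to -1.49 ± 0.16, without overlap and with the same exact p. Tomm40 rose relative to Tomm40l by 0.54 (95% interval 0.10 to 1.10, exact permutation p = 0.0238, adjusted p = 0.0381). Timm8a1 rose relative to Timm8b by 0.48 (95% interval 0.12 to 0.77, exact permutation p = 0.0159, adjusted p = 0.0317). Both of these lost the call without several single libraries, with adjusted p from 0.0508 to 0.0889. The pairs whose groups did not overlap kept it in each of the 10 sets without 1 library. The difference for Timm8a1 was 0.43 to 0.59 over the 10 sets without 1 library, and that for Tomm40 was 0.35 without WT5 and 0.44 to 0.61 in the 9 others. For Tomm40 the libraries were WT2, WT4, WT5, WT6, CKO7, CKO8 and CKO12, and for Timm8a1 WT3, WT4, WT5, WT6, CKO7, CKO8, CKO9 and CKO13. The intervals for Dnajc19 and Dnajc15 (-0.14 to 0.72), Mtx1 and Mtx2 (-0.09 to 0.54) and Pmpca and Pmpcb (-0.42 to 0.35) covered 0. Timm17a and Timm17b lay closer together in the authors' deposited table than here. Their log2 fold changes there were 0.83 (SE 0.12) and 0.68 (SE 0.14), against 0.77 and 0.30. That table gives 0.83 and 0.32 for Grpel1 and Grpel2, and 1.15 and 1.79 for Phb and Phb2. Tomm40 and Tomm40l were at 1.39 and 0.9 there, and Timm8a1 and Timm8b at 1.21 and 0.67. What sets Timm17a and Timm17b apart was not tested.

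**Figure D3:**
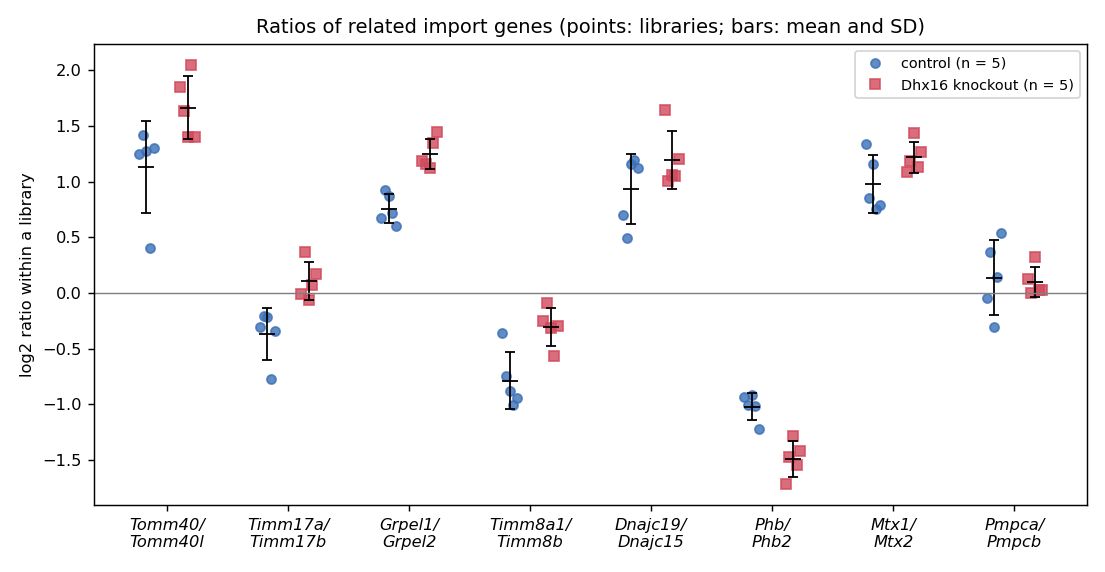
Log2 ratio of related import genes within each library, control (circles, n = 5) and Dhx16 knockout (squares, n = 5), with bars for the mean and SD. The groups are apart for Timm17a and Timm17b, Grpel1 and Grpel2, and Phb and Phb2.

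Other mitochondrial lists were set beside the import genes by the same fit, without a test between lists. Of all tested genes 21.1% were called higher and 31.6% lower. Of 19 other import and maturation genes 14 were tested, 6 were higher and 2 lower (median 0.17). Oxa1l, the inner membrane insertase, had a change of 1.14 and Aifm1, which supports the disulfide relay, 0.74. Immp2l, an inner membrane peptidase, had -1.0. Of 13 chaperones and proteases 6 were higher and 1 lower (median 0.31), led by Hspe1 (1.36) and Hspd1 (1.33), the matrix chaperonin pair, with Oma1, a stress protease, at -0.44. Of 12 cristae and outer membrane channel genes 7 were higher and none lower (median 0.41), with Minos1 at 0.92 and Immt at 0.73. Of 77 tested mitochondrial ribosomal proteins 48 were higher and none lower (median 0.45), led by Mrpl12 (1.0) and Mrps18b (0.97). Of 79 tested respiratory chain and ATP synthase genes 66 were higher and 2 lower (median 0.72), led by Atp5k (1.44) and Uqcr11 (1.3). The 2 lower ones were Atp5s (-0.84) and Atp5sl (-0.64), taken in by their symbols. The import genes' median of 0.50 lay between those of the ribosomal and the respiratory genes. Being higher under all 5 scalings came down to being higher with equal library totals. Under all 5 scalings 27 of the ribosomal and 60 of the respiratory genes were higher, against 15.3% of all tested genes. So were 6 of the other import and maturation genes, 5 of the chaperones and proteases, and 5 of the cristae and channel genes. Oma1 was among the genes lower as deposited that were not lower under all 5 scalings, and Atp5s was the only one of these lists' lower genes that was.

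**Figure D4:**
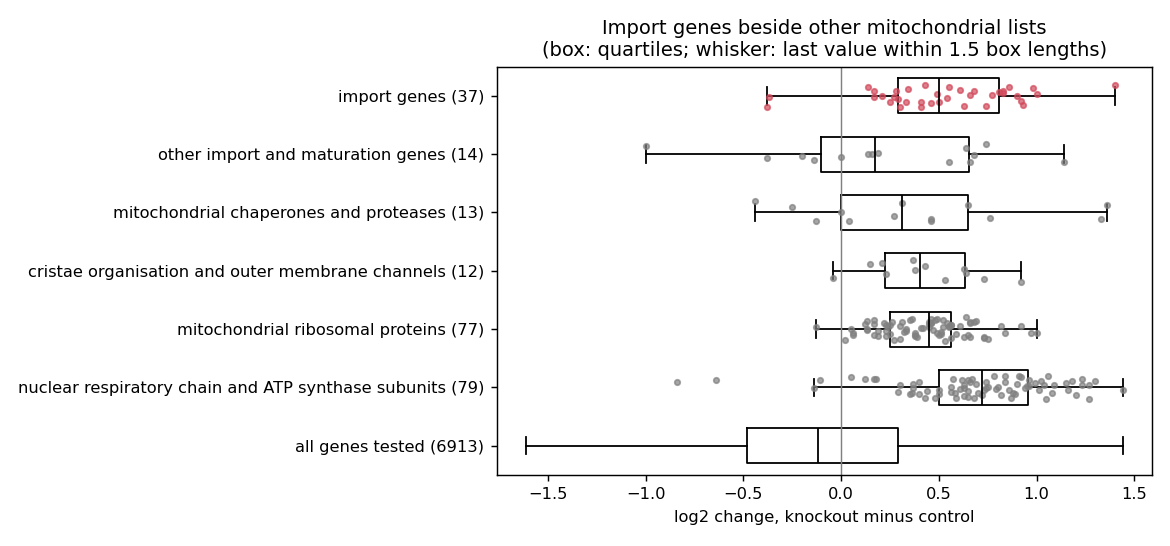
Log2 change of every tested gene on the import list and the 5 other mitochondrial lists, with boxes for the quartiles and whiskers to the last value within 1.5 box lengths, beside all 6913 tested genes. The median line of the import genes lies at 0.50 and that of all tested genes at -0.12.

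Control library WT4 stood apart in short genes, and this touches the smallest import subunits. A coding length limit of 500 nucleotides was chosen after the values were seen, in place of a limit on transcript length tried first. Of the 15 tested members below it WT4 was the highest control in 14, and of the 22 longer members in 4. WT4 lay above the mean of the other controls by a median of 0.60 in the short and 0.15 in the long members, and by 0.50 in 815 short and 0.05 in 5765 long genes among all those tested. At limits of 300, 400, 750 and 1000 nucleotides the medians over all tested genes were 0.62, 0.58, 0.39 and 0.32 for short genes and 0.08, 0.07, 0.00 and -0.04 for long ones. At those limits WT4 was the highest control in 7 of 7, 10 of 10, 17 of 22 and 17 of 28 short members. Among the long members it was the highest in 11 of 30, 8 of 27, 1 of 15 and 1 of 9. Leaving out a control can only add genes whose knockout libraries all lie above the controls. Without WT4 such members went from 18 to 24 and such genes from 12.9% to 17.7% of all tested genes, and without another control they were 18 or 19 members and 13% to 15.6% of genes. Of the short members 5 became 11, and the long ones stayed at 13. Shares over all short and all long tested genes were not computed, for these counts or for the highest control above. Members called higher went from 27 to 30 without WT4, with all genes called higher going from 21.1% to 23.3%, and members called lower went from 2 to 1, with all genes called lower going from 31.6% to 30.3%. What sets WT4 apart was not tested.

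**Figure D5:**
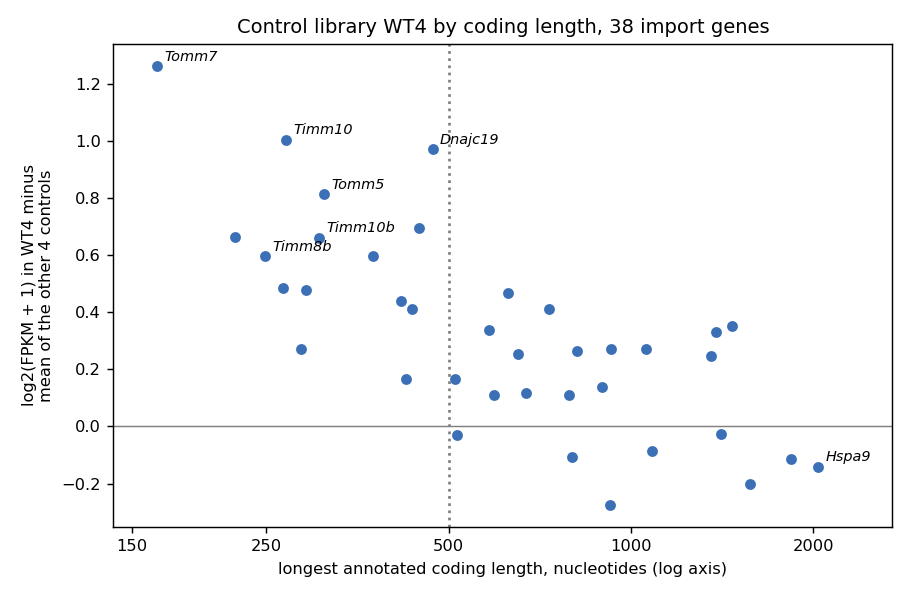
Difference of log2(FPKM + 1) in control library WT4 from the mean of the other 4 controls, against the longest annotated coding length on a log axis, for the 38 import genes, with a dotted line at 500 nucleotides. Of the 15 tested members left of the line WT4 was the highest control in 14, and Tomm7 lies farthest up.

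Promoters of 33 members (250 bases before to 50 after the start) were found in the set of RefSeq promoters used here. Timm21, Hspa9, Grpel2, Tomm40l and Tomm7 had none in that set. The letters CCGGAAG, an ETS factor motif, on either strand stood in 14 of the 33, or 42.4%, against 25.4% of the promoters of tested genes and 12.1% of those of all genes in the table. The NRF1 motif stood in 5 (15.2%, against 13.8% and 6.64%). The E-box CACGTG stood in 5 (15.2%, against 13.1% and 8.74%) and the YY1 letters AANATGGC in 5 (15.2%, against 11.7% and 7.29%). None of these motifs is contained in another. Shown as examples of the letters in their surroundings are 60-base stretches from 4 members described above. They are from the GRCm38.p6 build, 5′ to 3′ on the gene's strand, with the motif in capitals. The Phb2 stretch is chr6:124712190-124712249 on the plus strand, the Timm23 stretch chr14:32201905-32201964 on the minus strand, the Tomm34 stretch chr2:164071175-164071234 on the minus strand, and the Tomm20 stretch, with the NRF1 motif, chr8:126945922-126945981 on the minus strand.
Phb2: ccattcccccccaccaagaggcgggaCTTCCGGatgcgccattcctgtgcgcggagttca
Timm23: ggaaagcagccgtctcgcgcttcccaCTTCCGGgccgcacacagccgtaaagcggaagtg
Tomm34: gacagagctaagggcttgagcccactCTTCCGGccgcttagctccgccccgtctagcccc
Tomm20: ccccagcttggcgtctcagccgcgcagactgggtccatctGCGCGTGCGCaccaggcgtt
A match is a description of letters and not a measured site.

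Of the 38 members 26 overlap another annotated gene and 20 one on the other strand. The strand setting of the counting was not stated, so reads of overlapping partners could not be told apart, and Tomm40, Mtx1, Timm13, Timm10b and Phb2 are among the genes this touches.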

How the data were processed

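RNA of 5 control and 5 Dhx16 knockout samples was measured by bulk sequencing after Smart-Seq V4 amplification, per the labels' protocols. Bowtie 0.12.9, Cufflinks 2.1.1, HTSeq and mm10 are named, without roles, per the submitters' processing notes. The deposited library columns were taken to hold FPKM, a unit inferred from the values and not named per the file headers. The deposited mean normalized counts are a signal from the authors' DESeq2 run, as are the authors' log2 fold changes and standard errors. The deposited test statistic is a score of the authors' Wald test, and the deposited p-values, raw and adjusted, are the authors'. Columns were assigned to groups by name (WT or CKO), since their numbers match no sample title.

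From these, limma 3.58.1 (R 4.3.3, trend and robust) was fitted on log2(FPKM + 1) over the 6913 genes that reached 10 FPKM in 5 libraries or more, so a gene could pass through 1 group alone. Size factors were recovered from genes seen in 1 library, of which 3728 of 3734 gave whole reads within 0.0001. The total depth of single libraries is unknown. The limma fit and the permutation test were tested on simulated data. Upper-quartile factors were taken over genes above 0 in any library. A first version, over values above 0 in each library, was computed before this one, gave a different result, and stands as an added alternative. The members, lists and tests were chosen with earlier results of these data known. Every member is named with its role, and values in each library are given for the 12 called members of largest change, those called against the majority, and the central subunit of each machine. Of each other list the 2 called genes of largest change in each direction are named, except 1 that is not reported here. Identifiers and coordinates follow GENCODE M21, and promoters RefSeq.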

Additional observations from a re-analysis of the deposited data

Results flagged for a closer look

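In 5 of 78 groups of 5 libraries tested, covering the 38 import genes and Dhx16, 1 library lay far from the rest by its gap relative to the whole range (Dixon's limit 0.71), and chance marks about 1 group in 20. In all 5 it was control library WT4 at the high end. Tomm5 was at 122.43 FPKM there, with the next control at 76.64 FPKM. Tomm7 was at 40.63 FPKM, with the next at 19.76 FPKM. Timm8b was at 77.73 FPKM, with the next at 55.11 FPKM. Timm10b was at 105.88 FPKM, with the next at 73.74 FPKM. Dnajc19 was at 75.58 FPKM, with the next at 41.14 FPKM. All 5 have a coding length under 500 nucleotides.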

How the results depend on the processing

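No paired analysis was possible because the library columns carry numbers that differ between the groups and match no titled replicate. With median-of-ratios, upper-quartile and authors'-shift scaling, genes called higher numbered 3053, 3560 and 3039 (1460 as deposited), genes called lower 816, 582 and 780 (2182), and the import genes' median was 0.88, 0.98 and 0.90 (0.50). No import gene was called lower under any of these 3 (0, against 2), and Tomm34 was at 0.01, 0.12 and 0.03, with Timm21 at 0.10 under upper-quartile and 0.01 under authors'-shift scaling. With equal library totals Timm10b was at 0.00. Without a filter 5910 genes were called, 1387 of them higher and 4523 lower. All 52097 genes were then tested except the 9841 at 0 in every library, so these counts have a wider base than the 6913. Import genes called higher were then 21, against 27, and those called lower were 0. Mtx1, Timm8b, Timm10, Timm29, Timm17b and Dnajc19 lost the call as higher, with adjusted p from 0.0733 to 0.141. With a filter of 1 FPKM 6687 genes were called, 4890 of them lower. With library quality weights 31 import genes were called higher and 1 lower, beside 1900 genes higher and 2183 lower of the 6913 tested.

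Upper-quartile scaling depends on its definition. Taken over the values above 0 in each library, a form computed first and kept as an alternative added after seeing the data, it gave 1146 genes higher and 1878 lower, 20 import genes higher and 1 lower, and a median of 0.49. The members higher under all 5 scalings were then 18 in place of 19, without Dnajc19. The cause was not tested.

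Leaving out each library in turn gave 3225 to 3701 genes called, 1236 to 1608 higher and 1894 to 2231 lower, 22 to 30 import genes higher, 1 to 2 lower, a median of 0.48 to 0.56, and 3 to 4 pair ratios passing against 5. Of the 27 members called higher 22 (81.5%) kept the call in all 10 fits and 18 (66.7%) also under all 5 scalings. Of the 1460 genes called higher in all, 80.9% and 69.9% did so, near the members' shares. The strictest of the 5 scalings for higher genes, equal library totals, sets the second share. The ratio of Pmpca to Pmpcb differed by -0.15 to 0.06, against -0.04, and was positive without WT3 (0.02) or WT6 (0.06). Pseudocounts of 0.1 and 5 changed no import gene's call. Single library depths are unknown, so no detection limit is given.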
